A study of Homo sapiens with 15 samples.

Results

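The effect of cycloheximide on RNA footprints of exon junction complexes that contain CASC3 was examined in 4 of the 15 libraries of a RIPiT-Seq study of HEK293 cells. RIPiT-Seq isolates RNA that 2 proteins hold together: a FLAG-tagged protein is pulled down first, a second protein is then precipitated from that material with its own antibody, and the RNase I-protected RNA fragments are sequenced. The 4 libraries are the crosslinked CASC3-EIF4A3 libraries A and B without cycloheximide (untreated) and A and B from cells given 100 µg/ml cycloheximide for 3 h, called replicates 1 and 2 of each group here. All 4 came from 1 HEK293 Flp-In TRex line, a human embryonic kidney line with an integrated FLAG-CASC3 gene, in which the cells were fixed with 0.1% formaldehyde for 10 min, lysed under denaturing conditions and precipitated with anti-FLAG and then anti-EIF4A3. A set of 4 libraries from a FLAG-RNPS1 line, fixed, treated and precipitated in the same way, was used for comparison. Nothing in the labels says whether A and B were separate cultures, so p-values measure the spread between libraries, which may be technical, and the line is a population that expresses a tagged transgene beside the endogenous gene.

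The treated libraries were deeper than the untreated ones, with 8057700 and 6701629 counts against 943925 and 794010, and the counts they hold came from RNA of lower GC content, so depth, GC content and treatment cannot be told apart by design. Log-scale CPM (counts scaled to a common library total) of the replicates correlated with r = 0.91 untreated and r = 0.966 treated over the 13116 transcripts tested. Summed over a list of genes known from HEK293 cells, the libraries held 642, 705, 876 and 634 CPM, and genes of other tissues summed to at most 1.49 CPM. VIM alone gave 239, 247, 487 and 325 CPM of the first sums. Not every listed gene was present: NEFM had at most 0.50 CPM, and SOX11 had 3.18 and 6.30 CPM untreated and 0.25 and 0.15 treated.

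The exon junction complex (EJC) is deposited by the spliceosome a short distance upstream of each exon junction and stays on the mRNA until translating ribosomes remove it. Its core is formed by the RNA helicase EIF4A3 with MAGOH and RBM8A; CASC3 and RNPS1 are peripheral proteins that associate with the core. An EJC left downstream of a stop codon can trigger nonsense-mediated decay (NMD). Cycloheximide stops translation elongation and is used to keep EJCs that ribosomes would otherwise remove.

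The coding internal exons that differed most, by edgeR's p among those of at most 150 bases, are shown because they display where along the mRNA footprints were gained and lost. The letters are the hg38 exons of GENCODE v29 transcripts, 5′ to 3′ on the transcript strand, and capitals mark the bases 28 to 20 upstream of the exon's 3′ end, where EJCs are deposited.
Higher with cycloheximide:
NAA15 exon 18 of 20 (chr4:139384832-139384978, plus strand): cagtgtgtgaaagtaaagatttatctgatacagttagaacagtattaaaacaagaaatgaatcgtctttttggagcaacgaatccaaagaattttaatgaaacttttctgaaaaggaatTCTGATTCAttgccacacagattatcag
NCL exon 10 of 14 (chr2:231457001-231457124, minus strand): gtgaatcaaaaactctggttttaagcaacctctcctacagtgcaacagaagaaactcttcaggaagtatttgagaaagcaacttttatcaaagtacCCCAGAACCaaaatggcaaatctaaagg
MCM6 exon 16 of 17 (chr2:135844545-135844684, minus strand): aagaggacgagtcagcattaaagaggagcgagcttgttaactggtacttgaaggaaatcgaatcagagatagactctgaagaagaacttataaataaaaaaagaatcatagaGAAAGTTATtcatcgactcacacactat
TRIM24 exon 16 of 19 (chr7:138580562-138580694, plus strand): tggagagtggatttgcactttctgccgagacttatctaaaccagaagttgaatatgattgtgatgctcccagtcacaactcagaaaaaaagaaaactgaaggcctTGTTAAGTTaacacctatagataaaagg
Lower with cycloheximide:
USF2 exon 2 of 10 (chr19:35269446-35269492, plus strand): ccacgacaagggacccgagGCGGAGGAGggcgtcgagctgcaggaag
EGFL7 exon 4 of 10 (chr9:136668557-136668673, plus strand): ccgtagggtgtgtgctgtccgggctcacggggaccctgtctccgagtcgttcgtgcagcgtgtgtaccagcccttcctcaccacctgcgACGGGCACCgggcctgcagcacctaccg
SEPT9 exon 2 of 12 (chr17:77307141-77307197, plus strand): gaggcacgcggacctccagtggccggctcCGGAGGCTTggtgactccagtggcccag
LIN7B exon 3 of 6 (chr19:49115260-49115331, plus strand): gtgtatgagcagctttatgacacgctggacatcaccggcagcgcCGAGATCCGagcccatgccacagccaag

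The higher exons were AT-rich and lay in the 3′ part of their transcripts, that of NCL (exon 10 of 14) further from the end than the others. The lower ones were GC-rich and were exons 2 to 4 of transcripts with 6 to 12 exons, so that those of LIN7B and EGFL7 lay nearer the middle. Exon 18 of NAA15, a subunit of an N-terminal acetyltransferase, had 0 and 0 counts untreated and 389 and 484 treated, which is at least 34.3-fold higher when the untreated group is set to a floor of 3 counts over its libraries. Exon 10 of NCL, which encodes the nucleolar protein nucleolin, had 3 and 2 counts untreated and 1475 and 2082 treated, which edgeR fitted as 6.35 ± 0.95 on the log2 scale (SE, with n = 2 in each group; edgeR adjusted p = 1.5e-09). Exon 16 of MCM6, a subunit of the replicative helicase, had 2 and 0 counts against 751 and 672. The GC content of the higher exons was between 31.3% and 38.4%. They were picked by p, so the lack of overlap between the groups there is no result. The exons of NAA15, NCL, MCM6 and TRIM24 (TRIM24 with 0 and 0 counts untreated) passed the count filter only through the deeper treated libraries. With the GC correction explained below, the NCL exon was higher by 5.06 ± 0.90 (edgeR adjusted p = 2.55e-06) and the MCM6 exon by 4.96 ± 0.94 (edgeR adjusted p = 1.34e-05). These values describe exons picked by p and add no support.

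Exon 2 of USF2, a transcription factor gene, fell from 24 and 108 counts to 1 and 0, a ratio of 1121 with an exact 95% counting interval of 198 to 44608. Exon 2 of SEPT9, a septin gene, fell from 15 and 34 counts to 0 and 0, at least 139-fold. Exon 3 of LIN7B, which encodes a scaffold protein of cell junctions, fell from 22 and 93 counts to 3 and 2, a log2 fold change of -7.74 ± 0.83 (edgeR adjusted p = 3.09e-17). Untreated replicate 2 was the higher of the untreated pair at each of these exons, and the lower exons had a GC content of 59.7% to 71.9%. With the GC correction the LIN7B exon was lower by a log2 value of -6.89 ± 0.78 (edgeR adjusted p = 5.95e-15). Of the other exons under the same rule, NOC3L (exon 20 of 21) and XPO1 (exon 24 of 25) were higher, and FAM98C (exon 2 of 8) and GUK1 (exon 3 of 8) were lower.

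Across the transcriptome, the treated CASC3 libraries held less of their counts in the 5′ part and more in the 3′ part of coding transcripts than the untreated ones. The 127054 internal exons of protein coding transcripts with at least 10 exons, with or without counts, were divided by their place in the transcript into 5 equal segments, numbered 1 to 5 from the 5′ end, a division chosen after values had been seen. Segment 5 held 20.8% and 23.9% of internal exon counts in the untreated libraries and 30.7% and 34.5% in the treated ones, a mean of 22.3% ± 2.14 (SD, n = 2) against 32.6% ± 2.66. Segment 1 held 18.97% and 16.6% untreated and 12.1% and 9.5% treated, a mean of 17.8% ± 1.66 against 10.8% ± 1.85. The treated and untreated libraries did not overlap in any of the 5 segments, and each exact two-sided permutation test gave p = 0.333, the smallest that 2 libraries against 2 allow.

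The same shift was present among exons of like GC content. Among internal exons of 45% to 55% GC, segment 5 held 21.2% and 25.1% of counts untreated and 32.5% and 36.0% treated. Among those of 35% to 45% GC it held 15.9% and 19.5% untreated and 28.6% and 32.8% treated, and among those of 55% to 65% GC 22.1% and 24.1% against 31.9% and 34.6%. The treated libraries were the higher pair in each of these bands, which were chosen after values had been seen.

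**Figure D1:**
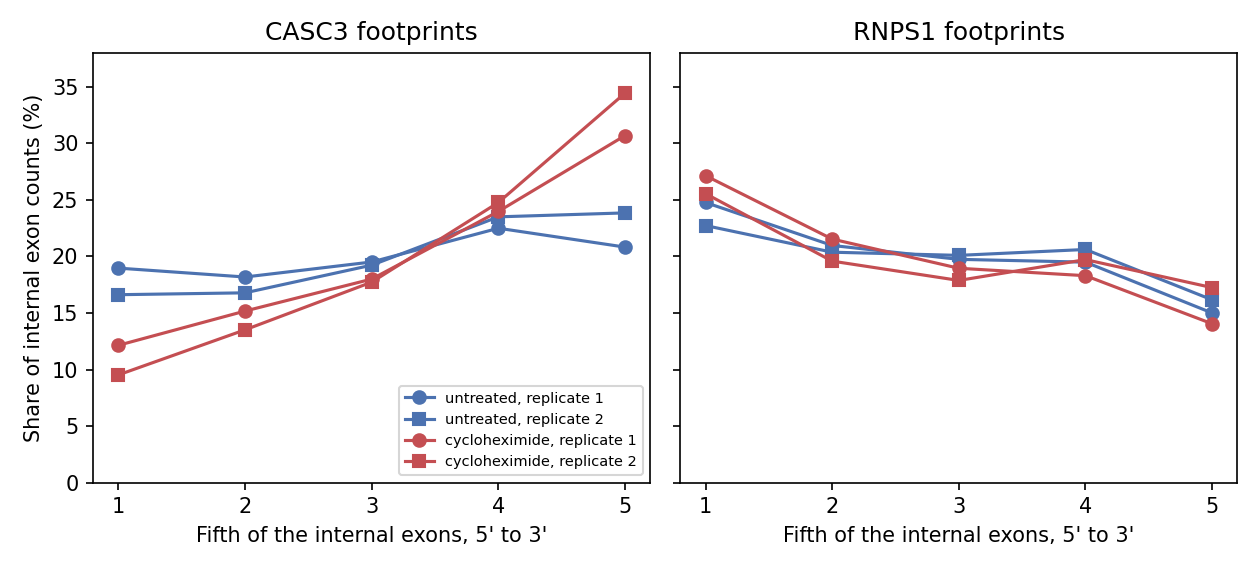
Share of internal exon counts (%, vertical axis) in 5 equal segments of the transcript from the 5′ to the 3′ end (horizontal axis) for each CASC3 library (left) and each RNPS1 library (right), untreated in blue and cycloheximide in red, circles for replicate 1 and squares for replicate 2. In segment 5 the treated CASC3 libraries stand at 30.7% and 34.5%, above 20.8% and 23.9% untreated, while the RNPS1 libraries of both groups lie between 14.0% and 17.2%.

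In RNPS1 footprints the share of the 3′ end did not rise beyond the spread of the libraries. In segment 5 the RNPS1 libraries held 15.0% and 16.2% untreated and 14.0% and 17.2% treated, so the groups overlapped. In segment 1 they held 24.8% and 22.7% untreated and 27.2% and 25.6% treated, so that the treated pair was higher, opposite to CASC3. The difference between the effects in the 2 proteins was not tested. The untreated CASC3 libraries already held more of their counts in segment 5 than the untreated RNPS1 libraries, and the RNA-seq libraries held 15.8% in both replicates.

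Fitted exon by exon, 16416 of 85424 exons tested were higher with cycloheximide and 17269 lower (edgeR's quasi-likelihood test, Benjamini-Hochberg adjusted p under 0.05, here called the threshold), which is 19.2% and 20.2% of those tested. The 33685 calls became 14287 without treated replicate 1, 14644 without treated replicate 2, 20442 without untreated replicate 2, and 7387 of 18074 tested with a mean of at least 10 counts in each group. In transcripts of at least 10 exons the median log2 fold change was -3.23 at exon 1, -0.90 at exon 2 and 0.21 at exon 6. Counted from the 3′ end, it was 1.71 at the penultimate exon, 1.44 at the exon before it and 0.87 at the last exon, which holds no junction of its own downstream. Of 4356 penultimate exons tested, 2022 were higher and 342 lower, and of 2191 second exons 90 were higher and 802 lower. These medians and counts cover exons that passed the count filter, which many passed through the deeper treated libraries alone, so they are a description. With a mean of at least 10 counts in each group, penultimate exons were higher in 256 and lower in 102 of 808 with a median of 0.59, and second exons higher in 35 and lower in 160 of 472 with a median of -0.81. The median of second exons was -0.08 without untreated replicate 1, -1.91 without treated replicate 1, -1.57 without treated replicate 2, -1.996 with the treated libraries thinned and -0.19 with no filter.

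**Figure D2:**
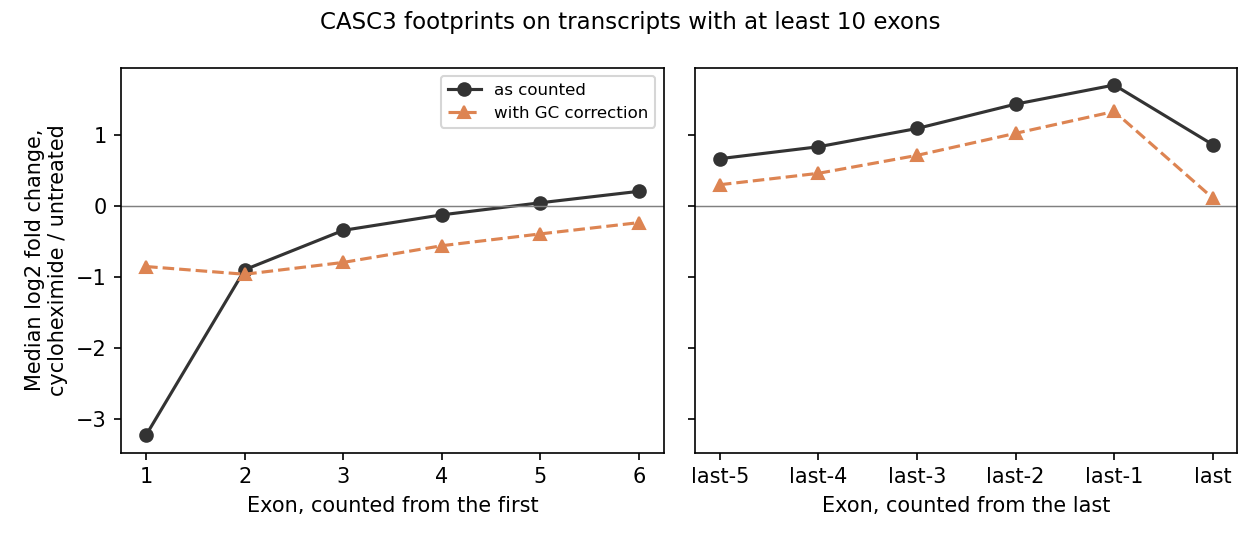
Median log2 fold change of exon counts, cycloheximide over untreated (vertical axis), by exon number from the first exon (left) and from the last (right, last-1 is the penultimate exon) in protein coding transcripts with at least 10 exons. Circles are values as counted and triangles values with the GC correction, which rise from -0.96 at exon 2 to 1.34 at the penultimate exon and are -0.85 at exon 1, against -3.23 as counted.

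A correction for GC content left the order of internal exons in place and took away most of the difference at exon 1. For this correction a smooth curve of each library's deviation against GC content was entered as an offset, after which 5720 of 84726 exons were higher (6.75%) and 9013 lower (10.6%). The median at exon 1, whose median GC content was 70.7%, moved to -0.85. It was -0.96 at exon 2, -0.23 at exon 6 and 1.34 at the penultimate exon, where 1161 exons were then higher and 112 lower. The median of penultimate exons exceeded that of second exons by 2.60, by 2.30 with the GC correction, by 3.88 with the treated libraries thinned to the depth of the untreated ones, and by 1.40 among exons with a mean of at least 10 counts in each group. In internal exons of 45% to 55% GC the median without any correction rose from -0.22 in segment 1 to 1.35 in segment 5.

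The fall at the 5′ end was largest, as counted, in first exons and in exons whose 3′ junction lies in the 5′ UTR. First exons held 10.4% and 10.9% of counts in the untreated libraries and 2.06% and 1.91% in the treated ones. Exons at a 5′ UTR junction held 3.85% and 4.83% untreated and 0.652% and 0.521% treated, among exons with a junction in an annotated coding transcript. Exons at a 3′ UTR junction, the place downstream of the stop codon where EJCs mark NMD substrates, held 0.530% and 0.679% untreated and 0.821% and 0.811% treated. In all 3 the groups did not overlap (exact two-sided permutation p = 0.333 each, the smallest possible). Last exons did overlap, with 15.2% and 11.7% untreated and 21.8% and 12.6% treated.

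**Figure D3:**
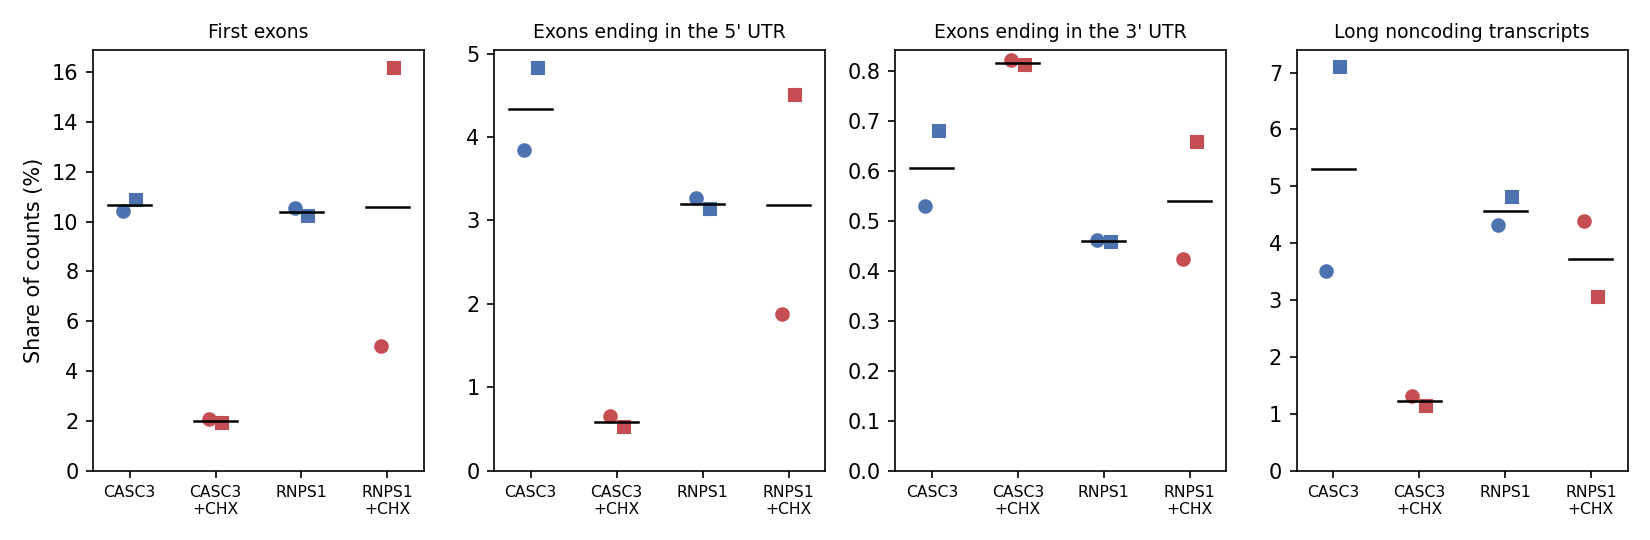
Share of counts (%, vertical axes from 0) in first exons, in exons ending in the 5′ UTR, in exons ending in the 3′ UTR and in long noncoding transcripts, for CASC3 and RNPS1 libraries without and with cycloheximide (CHX); points are libraries (circles replicate 1, squares replicate 2) and lines are means. First exons fall from 10.4% and 10.9% to 2.06% and 1.91% in CASC3, whereas the treated RNPS1 libraries lie at 5.02% and 16.2%, on either side of the untreated ones.

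Exons of equal GC content still differed by where their junction lay. Among exons of 50% to 55% GC the median log2 fold change was -1.87 over 64 exons at a 5′ UTR junction, 0.27 over 9307 at a coding junction and 0.82 over 61 at a 3′ UTR junction. With the GC correction these medians were -2.17, 0.10 and 0.74. Of the 64 exons at a 5′ UTR junction 0 were higher and 36 lower in both fits. The GC classes of exons were set after values had been seen.

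Use of exons within a transcript, which removes any change the whole transcript shares, was called in 4948 of 9316 transcripts (53.1%, edgeR diffSpliceDGE with Simes adjusted p) and in 4471 of 9257 (48.3%) with the GC correction. Without 1 library the number was 2819 or 2887 (untreated replicate 1 or 2) and 1844 or 1755 (treated replicate 1 or 2), and with the treated libraries thinned it was 1486 of 3838. Among single exons, 3.0% of 83285 were used more and 7.66% less. Of 1533 exons at a 5′ UTR junction 9 were used more and 1119 less, and 36 and 386 with the correction, for which the background is 10.2% and 5.92%. Of 368 exons at a 3′ UTR junction 38 were used more and 5 less, and 73 and 3 with the correction. First exons were used less in 3602 of 4916 cases and more in 2, and in 863 and 331 with the correction. The correction reversed the GC trend of exon use rather than removing it. At coding junctions, exons of up to 40% GC were used more in 579 and less in 108 cases as counted. With the correction these were 91 and 1116. Those of 60% to 65% GC went from 90 and 813 to 2283 and 186. Corrected counts of exon use are therefore not free of GC content.

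In 8 of the 10 transcripts with the smallest p for exon use among those called in both fits, exon 1 led the call. The exon used differently had fewer counts although its transcript had many more. Exon 1 of EZH2, the catalytic subunit of Polycomb repressive complex 2, fell from 32 and 31 counts to 6 and 1, while the transcript rose from 255 and 179 to 4086 and 3296 counts in the deeper libraries (log2 change relative to the other exons -5.01, and -2.25 with the GC correction). Exon 1 of GLMN, the gene of glomulin, fell from 15 and 9 counts to 0 and 0, at least 67.9-fold in CPM. Exon 2 of ZFR, a zinc finger RNA-binding protein, fell from 19 and 79 counts to 6 and 2. The leading exons of the 10 transcripts were between 66.7% and 84.6% GC. Passing with the correction was a condition for being among the 10, so it is no result about them. TLK2, NELFCD, TOPBP1, ITGB1, KDM3B and PUM2 were also led by exon 1, and PHIP by exon 4 of 40.

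RELN, which encodes the large secreted protein reelin, had 179 and 257 counts untreated, all in exon 1, and 1 and 2 treated. Of the 3 treated counts 1 lay in exon 1. The ratio of CPM was 1234 (exact 95% counting interval 420 to 6008). The RNA-seq counts of RELN, 35 and 20, also lay in exon 1 alone, so a loss of exon 1 relative to the rest of the transcript was not measured. In RNPS1 footprints exon 1 had 86 and 147 counts untreated and 3 in treated replicate 1. The shallow treated RNPS1 replicate 2, with 467741 counts in all, held 20.

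At the level of whole transcripts, 3216 of 13116 tested were higher with cycloheximide (24.5%) and 3193 lower (24.3%), and these changes followed GC content closely. Count-weighted transcript GC content was 52.7% and 53.6% in the untreated libraries and 47.3% and 48.2% in the treated ones. In the lowest of 5 equal groups by GC content (28.6% to 41.5%) 1324 transcripts were higher and 98 lower, with a median log2 fold change of 1.07. In the highest (59.0% to 83.9%) 31 were higher and 1665 lower, with a median of -1.56. Across 13041 transcripts the log2 fold change correlated with GC content with r = -0.589, and across 11955 protein coding transcripts with several exons with r = -0.621, given as a description since transcripts share libraries. With the GC correction r was -0.015, which the correction brings about by construction. In that fit 2133 transcripts were higher (16.4%) and 2295 lower (17.6%). Calls in the same direction in both fits numbered 3174 (1515 higher and 1659 lower), which is 49.9% of the 6366 uncorrected calls with a GC value and 71.7% of the corrected calls, and 25 called transcripts changed direction.

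**Figure D4:**
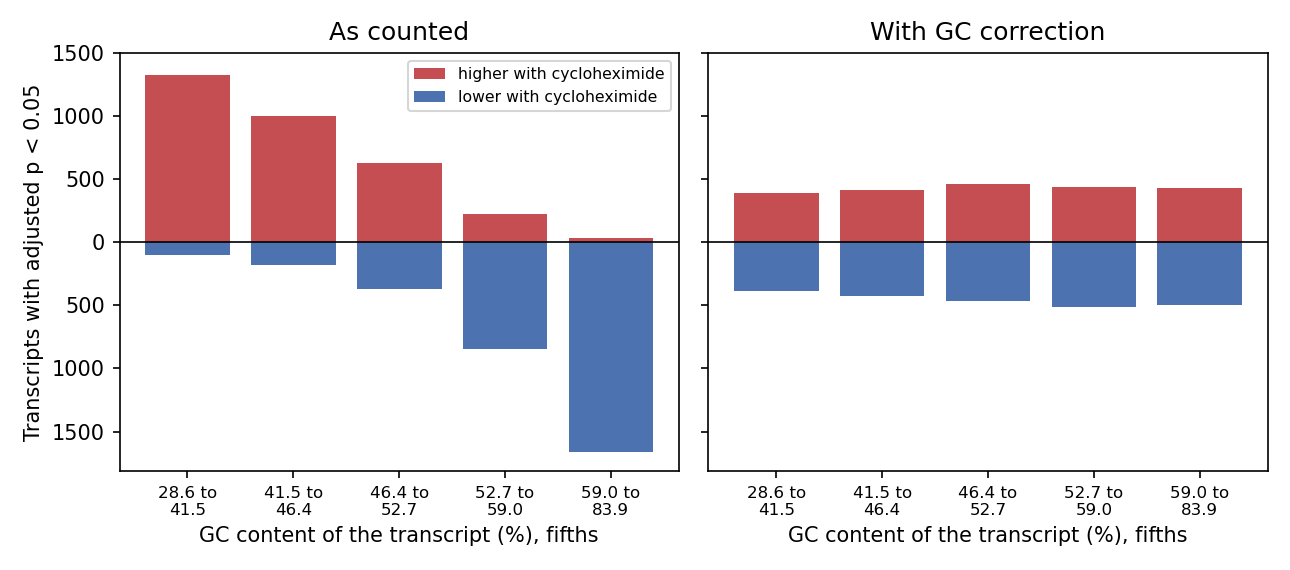
Number of transcripts called higher (red, upward) and lower (blue, downward) with cycloheximide in CASC3 footprints (vertical axis) in 5 equal groups by transcript GC content (horizontal axis, %), as counted (left) and with the GC correction (right). As counted, calls go from 1324 higher and 98 lower at the lowest GC content to 31 higher and 1665 lower at the highest. With the correction both directions are about even in each group, which it brings about by construction.

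A slope with GC content was also present in 1 of the 2 treated RNPS1 libraries. Relative to each library's median, treated CASC3 replicates had medians of 1.07 and 0.92 log2 units in the lowest GC group and -1.68 and -1.41 in the highest, measured against the untreated mean. Treated RNPS1 replicate 1 had 0.79 and -1.19. Treated RNPS1 replicate 2, with 467741 counts the shallowest library, had -0.16 and 0.09.

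By transcript class, long noncoding and single-exon protein coding transcripts lost footprints. Long noncoding transcripts held 3.52% and 7.1% of counts untreated and 1.31% and 1.13% treated. Of 625 tested, 29 were higher and 303 lower with a median log2 fold change of -1.41, and 24 and 290 with the GC correction with a median of -1.43. Intronless protein coding transcripts, which carry no junction, were higher in 1 and lower in 99 of 199 (3 and 76 with the correction). Small noncoding ones were higher in 16 and lower in 39 of 81 (17 and 27), with a median of -1.33. Without untreated replicate 2 the median of the small noncoding class turned to 0.21, so its fall rests on that library. The medians of long noncoding and intronless coding transcripts were then -0.96 and -0.89. Over all transcripts the median was 0.05, with 24.5% higher and 24.3% lower (16.4% and 17.6% with the correction). Protein coding transcripts with several exons were higher in 3124 and lower in 2666 of 11955.

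Footprints also differed with the number of exons. The counts here stand beside 24.5% higher and 24.3% lower over all transcripts, or 16.4% and 17.6% with the correction. Of 452 transcripts with 2 exons 17 were higher and 184 lower (median -1.15), whereas of 3667 with 11 to 20 exons 1277 were higher and 698 lower (median 0.43). With the correction these were 21 and 152 (median -0.97) and 840 and 390 (median 0.25). Transcripts with the most exons, 41 to 183, went the other way, with 32 higher and 66 lower of 249, and 4 and 53 with the correction (median -0.47). Transcripts annotated as NMD products were higher in 33 and lower in 56 of 178 (18.5% and 31.5%), with a median of -0.41. With the correction 27 were higher and 25 lower, with a median of -0.05.

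The 12 largest rises among transcripts that passed in both fits included 2 of the ID family. ID3 and ID1, inhibitors of basic helix-loop-helix transcription factors, have a GC content of 57.2% and 57.6%, in a range (52.7% to 59.0%) where 844 of 2608 transcripts were lower and 220 higher. ID3 had 8.48 and 2.52 CPM untreated and 121 and 73.6 treated, a log2 fold change of 4.16 ± 0.47 (edgeR adjusted p = 4.6e-07), and 4.77 ± 0.46 with the correction. TIPARP, an aryl hydrocarbon receptor target that ADP-ribosylates proteins, went from 25.4 and 7.56 to 288 and 374 CPM (4.44 ± 0.49, corrected 3.63 ± 0.45). Lack of overlap between the groups and passing with the correction were conditions for being among the 12 in either direction. Neither is therefore a result about these genes. ARRDC3, an arrestin-family adaptor, went from 9.53 and 6.3 to 228 and 146 CPM. The microRNA hairpin gene MIR21 went from 2.12 and 1.26 to 32.4 and 14.9 CPM, where the untreated values rest on 3 counts and the ratio was 14.2 (exact 95% counting interval 4.81 to 69.0). ZNF654, TRMT6, ENPP4, DNTTIP2, NUFIP1 and STK17B were also among the 12 largest rises, with log2 fold changes between 3.68 and 5.15. Of these, ZNF654 and ENPP4 also rest on 3 untreated counts each. Their ratios were 32.1 (exact 95% counting interval 10.9 to 156) and 14.2 (4.82 to 69.2).

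The largest falls after RELN were mostly in GC-rich transcripts, short noncoding ones among them. RPPH1, the RNA of RNase P, went from 924 and 7004 CPM to 44.4 and 26.9 (-6.89 ± 1.00, corrected -5.01 ± 0.86). RN7SL1, a 7SL RNA of the signal recognition particle whose counts may be shared with near-identical copies, went from 454 and 2092 to 6.83 and 8.06 CPM (-7.45 ± 0.79, corrected -5.95 ± 0.66). MDK, the growth factor midkine, went from 322 and 560 to 8.94 and 6.71 CPM (-5.81 ± 0.50, corrected -4.27 ± 0.43). Untreated replicate 2 was the highest library for all 3. NKX2-1, a homeobox gene, was even between the untreated replicates at 74.2 and 83.1 CPM and went to 1.86 and 1.19 (-5.60 ± 0.45, corrected -4.51 ± 0.43). EVX2, DUX4 (a repeat gene whose copies share reads), METRN, HIC1, EGFL7, ZNF865 and ZNF775 were the others.

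Several groups of genes that work together moved largely one way. Of 80 cytoplasmic ribosomal protein transcripts 5 were higher and 47 lower, with a median log2 fold change of -1.32, and 4 and 53 with the GC correction (-1.58). Over all transcripts 24.5% were higher and 24.3% lower, or 16.4% and 17.6% with the correction. RPL35 went from 627 and 2170 to 43.1 and 38.1 CPM (-5.14 ± 0.68), and RPS28 from 140 and 280 to 24.9 and 21.3 CPM (-3.17 ± 0.41). Without untreated replicate 2 the count was 5 higher and 31 lower and the median -0.72. The members that rose were RPL9, RPL6, RPS3A, RPL7 and RPL11, named after their values were seen. In RNPS1 footprints the median of the same list was 0.81.

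The counts of the next lists stand beside 24.5% higher and 24.3% lower over all transcripts, or 16.4% and 17.6% with the correction. Proteasome transcripts rose in 21 and fell in 0 of 31, with a median of 1.41 (14 and 0, median 1.01, with the correction). PSMC6, an ATPase of its regulatory particle, went from 22.2 and 25.2 to 157 and 119 CPM (2.60 ± 0.38, edgeR adjusted p = 9.15e-06). Chaperones rose in 19 and fell in 1 of 26 (15 and 1 with the correction). CCT4, a subunit of the ring-shaped CCT chaperonin with 14 exons, went from 62.5 and 49.1 to 365 and 269 CPM (2.57 ± 0.40). The chaperone that fell was the intronless HSPA1B, from 143 and 471 to 21.8 and 15.2 CPM (-4.08 ± 0.50). Transcripts for DNA replication rose in 26 and fell in 1 of 47 (22 and 0 corrected), with RFC2, a clamp loader subunit, going from 39.2 and 32.7 to 211 and 228 CPM (2.70 ± 0.39). The aminoacyl-tRNA synthetases rose in 12 and fell in 1 of 20 (10 and 1 corrected), secretory pathway transcripts rose in 23 and fell in 0 of 50 (17 and 4 corrected), translation factors in 19 and 5 of 40 (16 and 5 corrected), and mitotic regulators in 21 and 2 of 43. With the correction 9 and 2 mitotic regulators were called, the higher share being near that of all transcripts.

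**Figure D5:**
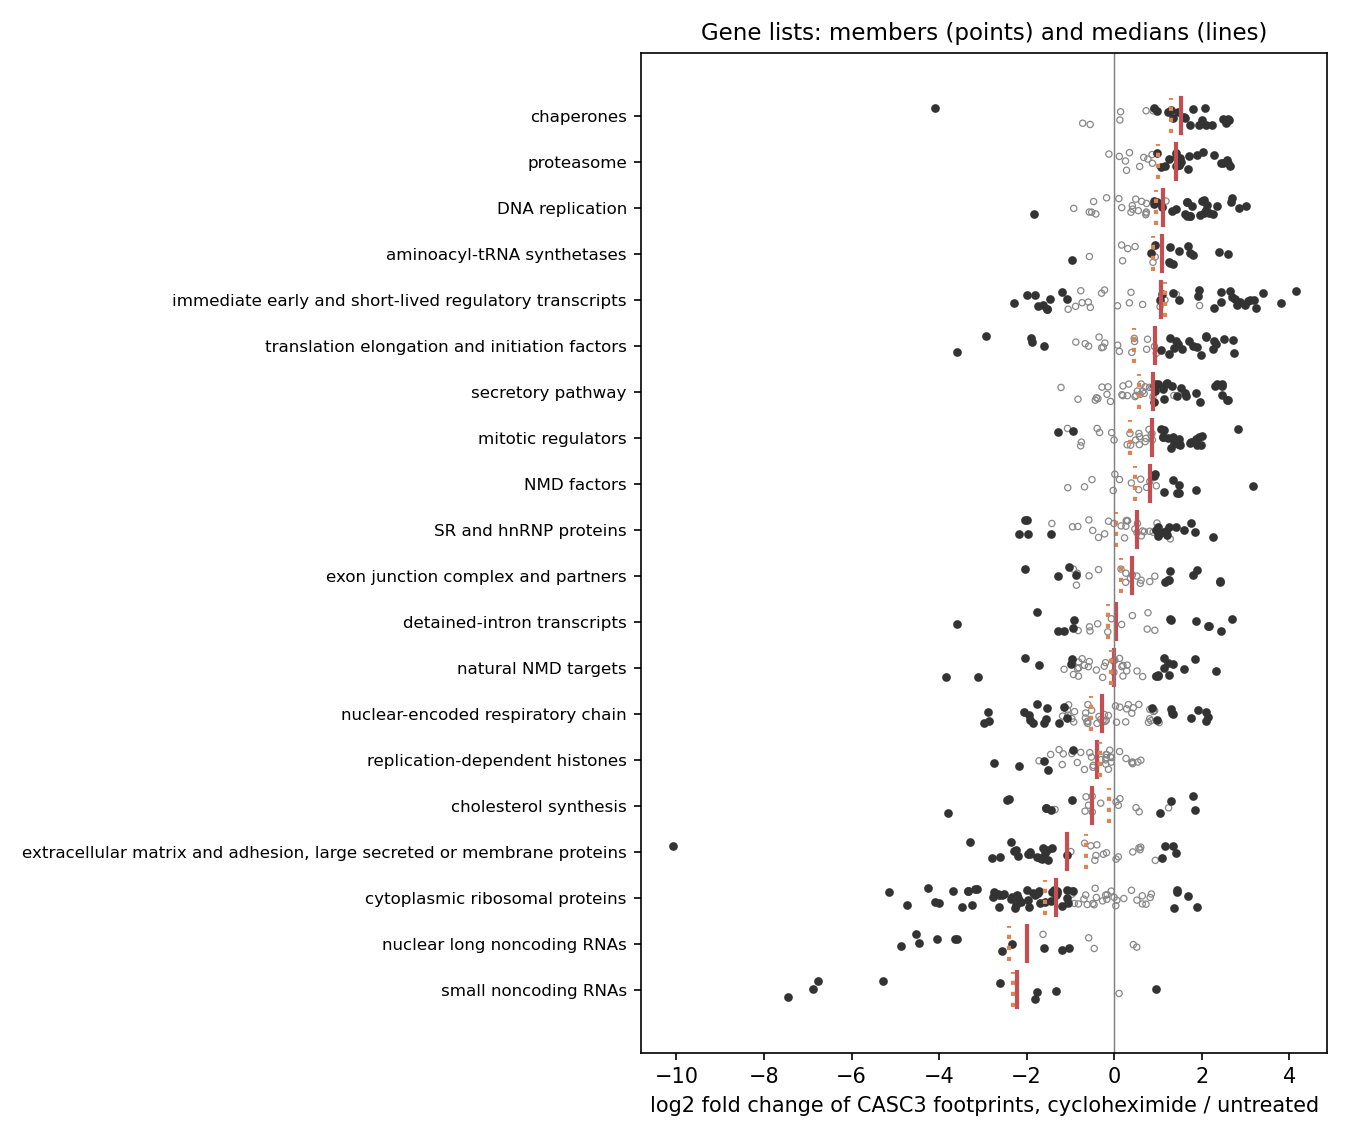
Log2 fold change of CASC3 footprints, cycloheximide over untreated (horizontal axis), for members of 20 gene lists (vertical axis, sorted by median); filled points passed the threshold, open points did not, solid lines are medians as counted and dotted lines medians with the GC correction. Chaperones (median 1.52) and proteasome (1.41) lie to the right, ribosomal proteins (-1.32) and small noncoding RNAs (-2.21) to the left.

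Immediate early and other short-lived transcripts rose in 22 and fell in 10 of 48 tested, with a median of 1.07 at a median GC content of 53.3%, and in 21 and 6 with the correction, beside 24.5% higher and 24.3% lower over all transcripts. Over the 31 members with a mean of at least 10 counts in each group the median was -0.27, with 12 higher and 10 lower. ID2 rose from 14.8 and 8.82 to 106 and 76.3 CPM (3.00 ± 0.40). The next genes were named after their values were seen. NFKBIA, the inhibitor of NF-κB, went from 26.5 and 13.9 to 109 and 207 CPM (3.10 ± 0.44, corrected 3.21 ± 0.41). DUSP1, a phosphatase that inactivates MAP kinases, went from 22.2 and 25.2 to 120 and 178 CPM (2.76 ± 0.41). JUN, an intronless subunit of the AP-1 transcription factor, fell from 176 and 539 to 107 and 107 CPM (-1.75 ± 0.47, corrected -1.18 ± 0.42).

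Nuclear long noncoding RNAs rose in 0 and fell in 11 of 16 tested (0 and 13 with the correction), with a median of -1.98. NEAT1, the scaffold of paraspeckles, went from 247 and 621 to 20.6 and 18.95 CPM (-4.46 ± 0.50, edgeR adjusted p = 4.87e-07). TERC, the telomerase RNA, fell by 4.88 on the log2 scale and MIR17HG, a microRNA host gene, by 4.06. Among 45 microRNA hairpin genes tested 13 were higher and 12 lower, and 15 and 2 with the correction. The uncorrected shares, 28.9% and 26.7%, are near those of all transcripts. With the correction, 16.4% of all transcripts were higher and 17.6% lower. Of 10 other small noncoding RNAs tested of 26 listed, 1 was higher and 8 lower. RMRP, the RNA of RNase MRP, went from 1342 and 3176 to 56.0 and 60.6 CPM.

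Known natural NMD targets rose in 11 and fell in 6 of 43, with a median of -0.00 (6 and 5 with the correction, median -0.08). The shares called were 25.6% and 14.0%, beside 24.5% and 24.3% of all transcripts. SF3B1, a core splicing factor gene, went from 181 and 111 to 684 and 690 CPM (2.34 ± 0.46), while SNHG5, a small nucleolar RNA host gene, went from 89.0 and 207 to 15.6 and 17.9 CPM (-3.12 ± 0.42). NMD factors rose in 9 and fell in 0 of 21 (5 and 2 with the correction), led by SMG8, a regulator of the SMG1 kinase, from 13.8 and 7.56 to 87.4 and 93.3 CPM (3.16 ± 0.41, edgeR adjusted p = 2.83e-06). SR and hnRNP proteins rose in 13 and fell in 5 of 43 (8 and 6 corrected). SRSF1, a founding member of the SR proteins, went from 414 and 475 to 109 and 101 CPM (-2.03 ± 0.41). Detained-intron transcripts rose in 7 and fell in 6 of 24 (5 and 7 corrected), with CLK1, a kinase of SR proteins, going from 68.9 and 21.4 to 270 and 264 CPM (2.68 ± 0.42).

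The remaining lists leaned lower or were near the background. Cholesterol synthesis genes rose in 4 and fell in 7 of 24 (2 and 7 corrected), and INSIG1, which retains the sterol sensor in the endoplasmic reticulum, went from 195 and 151 to 14.8 and 8.95 CPM (-3.81 ± 0.36, corrected -4.36 ± 0.35). Large secreted, matrix and adhesion genes rose in 4 and fell in 20 of 39, but in 0 and 8 with the correction. AGRN, which encodes the proteoglycan agrin at 67.6% GC, went from 1416 and 1738 to 106 and 197 CPM (-3.29 ± 0.59) and did not pass with the correction (-1.03 ± 0.50, edgeR adjusted p = 0.112). Respiratory chain genes rose in 10 and fell in 14 of 62 (12 and 16 corrected). Zinc finger genes rose in 49 and fell in 80 of 390 tested of 476 listed (29 and 104 corrected), and replication-dependent histones rose in 0 and fell in 5 of 36 tested of 71 listed (3 and 3 corrected).

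Of the transcripts that encode the EJC itself, EIF4A3 rose. It went from 56.1 and 46.6 to 226 and 286 CPM (2.41 ± 0.39, edgeR adjusted p = 3.34e-05, corrected 2.33 ± 0.37). In RNPS1 footprints its log2 fold change was -0.37 ± 0.47, and the difference between the proteins had an edgeR adjusted p of 0.106. RBM8A went from 45.6 and 23.9 to 104 and 55.7 CPM (1.26 ± 0.36), and did not pass with the correction (0.50 ± 0.34, edgeR adjusted p = 0.264). MAGOH went from 18.0 and 11.3 to 9.18 and 6.42 CPM (-0.84 ± 0.52, edgeR adjusted p = 0.186) and passed as lower with the correction (-1.49 ± 0.53, edgeR adjusted p = 0.0276). RNPS1 fell from 670 and 1365 to 256 and 235 CPM (-2.05 ± 0.53). CASC3, whose counts may include the FLAG-CASC3 transgene, had 311 and 220 CPM untreated and 257 and 334 treated, and the groups overlapped. The whole list of 27 EJC proteins and partners rose in 8 and fell in 4 (5 and 4 corrected). Over all transcripts 24.5% were higher and 24.3% lower (16.4% and 17.6% corrected).

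In the RNPS1 libraries cycloheximide gave few calls. In a fit of all 8 crosslinked libraries, edgeR called 0 transcripts higher and 3 lower of 14297 for RNPS1 (0.021%), with 1890 at an unadjusted p under 0.05, against 2293 higher and 2258 lower for CASC3. The difference between the effects was called for 0 transcripts (0.0%), with 2506 at an unadjusted p under 0.05, while DESeq2 called 378. RPL35 had the smallest adjusted p of the difference among the named transcripts. Its log2 fold change was -5.14 ± 0.68 in CASC3 and 2.09 ± 0.78 in RNPS1 footprints (edgeR adjusted p = 0.0664). Without treated RNPS1 replicate 1 the difference was called for 3473 transcripts, and without the shallow replicate 2 for 502. A transcript called for CASC3 and not for RNPS1 is therefore not shown to differ between them.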

How the data were processed

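RNase I footprints and RNA-seq of HEK293 lines were measured as counts per transcript and per exon. Per the submitters' processing notes, reads were processed with cutadapt 1.16, TopHat2 2.1.1 and bedtools on hg38; how reads were counted is not given in the sources used here. The deposited values are whole-number counts, not normalized, and 19 blank lines were left out. Transcripts were matched by ID to GENCODE v29, which took in 99.7% of the counts of the 4 libraries; 2.82% of exons share their position with another exon, so such counts are uncertain.

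Counts were fitted with edgeR 4.0.16 in R 4.3.3 (quasi-likelihood test, TMM normalization, filterByExpr with a minimum of 10, Benjamini-Hochberg adjustment, threshold 0.05), with Python 3.11.15 and SciPy 1.17.1 for shares and exact tests; ± after a log2 fold change is the standard error. For the GC correction, a lowess curve (span 0.3) of each library against GC content was used as an offset. DESeq2 1.42.0 and limma 3.58.1 were alternatives. Intervals and floors (95%, 3 counts) cover counting error only. On simulated data with the transcript comparison's counts, 200 of 12931 transcripts were changed, 100 each by a log2 value of 2 and of 3. Of these, 88% and 100% were recovered, with 5 false calls. For exons, where 200 of 78418 were changed in the same way, 21% and 83% were recovered. Only abundant features, those whose mean log2 CPM was 4 or higher, were candidates for change, so the rates hold for such features. Recovery was not measured for features of low counts, nor for a difference in GC content between groups. These rates are therefore not the power over all features tested. The text names the 12 largest log2 fold changes in each direction among transcripts that passed with the same sign in both fits, had an average log2 CPM of at least 4, did not overlap between groups and carried an official symbol that is no clone, pseudogene or copy name; at most 3 genes of every list, those of smallest p; the EJC genes; the 6 coding internal exons of at most 150 bases with the smallest p in each direction, 1 per gene; and the 10 genes with the smallest p for exon use. The 10 genes for exon use were taken from those called in both fits that carried such a symbol. Fewer are printed, by rank. Members, lists and rules were chosen with earlier results of these data known.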

Additional observations from a re-analysis of the deposited data

Results flagged for a closer look

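Each value here is the effect of cycloheximide on a share of counts in CASC3 footprints minus that in RNPS1 footprints, in percentage points, and stands out because both treated libraries of one protein moved opposite to both of the other. None of these differences was tested. For internal exons in segment 1, nearest the 5′ end, it was -9.56 (-6.96 in CASC3 and 2.60 in RNPS1). Among exons of 35% to 45% GC it was -10.1 (-8.59 and 1.55), of 45% to 55% GC -10.3 (-7.34 and 2.96), and of 55% to 65% GC -7.78 (-5.93 and 1.85). In segment 4 among exons of 55% to 65% GC it was 2.03 (1.06 and -0.97). For the share of all internal exons it was 16.3 (9.54 and -6.80). Among exons of 60% to 70% GC it was -3.49 for 5′ UTR junctions (-2.72 and 0.77) and 3.56 for coding junctions (2.65 and -0.91). The depth of the libraries moves with the groups: the treated RNPS1 libraries had 7251722 and 467741 counts, and its part in these values was not tested.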

How the results depend on the processing

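The number of transcripts called, 6409, was between 4303 and 6863 under the other settings and between 4351 and 5169 without any 1 library. The number of exons called, 33685, was 19350 in the 8-library fit, 14733 with the GC correction, 11457 with the replicate block and GC correction, 13099 (of 24664 tested) with treated libraries thinned to the untreated depth, 7387 (of 18074) with a mean of at least 10 counts in each group, and 14287 to 24815 without any 1 library. Transcripts with changed exon use, 4948, numbered 1486 with thinning, 1137 with the mean of at least 10 counts, and 1755 to 2887 without any 1 library. Fewer features were tested under thinning and under the mean filter. The difference between the proteins, called for 0 transcripts, was called for 459 with no filter, 257 with the GC correction, 693 with the replicate block and 378 by DESeq2, and for 0 to 3473 without any 1 library, of which 37 without untreated CASC3 replicate 1; the cause was not tested.

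The fall in the first-exon share, -8.67 percentage points, was -9.31 in coding transcripts with several exons and -8.99 without exons of shared position, and -8.90 to -8.44 without any 1 library. Ranges without any 1 library were -4.24 to -3.26 points for 5′ UTR junctions, 0.137 to 0.286 for 3′ UTR junctions, -5.88 to -2.30 for long noncoding, -1.56 to -0.358 for small noncoding and -0.562 to -0.306 for intronless coding transcripts, -8.27 to -5.65 for segment 1, 8.35 to 12.1 for segment 5, and -5.85 to -4.91 for mean GC content. The median log2 fold change of penultimate minus second exons, 2.60, an alternative set added after seeing the data, was 1.40 with the mean of at least 10 counts, and 1.99 to 4.26 without any 1 library.

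The median of the immediate early list, 1.07, became -0.27 over the 31 members with a mean of at least 10 counts, and the log2 fold change of CASC3 became -0.18 without treated replicate 2 (edgeR adjusted p = 0.773; up to 0.46 without any other library). Of 1193 values of named transcripts under alternatives, 1166 kept direction and call, 18 lost the call, 8 gained it and 1 changed sign. Replicate letters did not pair the libraries (correlation of their deviations 0.0443 over 8364 transcripts); with the replicate block 6637 transcripts, 30874 exons and 4943 transcripts for exon use were called. Depth limits the exon values, since 18074 exons reached a mean of 10 counts in each group, beside 85424 tested.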
